A study of Mus musculus with 8 samples.

Results

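A set of 9 inflammasome genes was followed in mouse T-cell progenitors in which the transcription factor genes Stat5a and Stat5b had been targeted: the sensors Naip2, Naip5, Naip6, Nlrc4, Nlrp3, Nlrp1b and Aim2, the protease gene Casp1 and the adaptor gene Pycard. They are 9 of the 24506 genes in the deposited count table, found there by their symbols, and all 9 were among the 13775 genes with enough counts to be tested. The 9 were picked with earlier results of these libraries known, the higher Naip5 level of STAT5-targeted early cells among them. They were thus chosen by measured values of these same libraries, at least the sgStat5-against-control value of Naip5 in the early gate. Which other values lay behind the choice is not recorded, so the values of STAT5-targeted against control cells are given below as a description, without a test for single members.

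The libraries were bulk RNA-seq of T progenitors grown from bone marrow of B6 mice carrying Cas9, a Bcl2 transgene and a Bcl11b-mCherry reporter, which all groups share. Progenitors were held overnight in IL-7, Flt3 ligand and SCF, infected with guide RNA retroviruses and grown for 6 days on OP9-DLL1 stroma, which supplies a Notch ligand, with 10 ng/ml each of IL-7 and Flt3 ligand. Lineage-negative, CD25+ cells carrying the infection marker were sorted by the reporter: mCherry-positive cells are called late (after T-lineage commitment) and mCherry-negative cells early (before it). The 4 groups, each of 2 libraries, were late sgStat5, late control, early sgStat5 and early control. The sgStat5 cells received 3 guides against Stat5a and 3 against Stat5b, and the labels do not name the targets of the control guides. The Bcl2 transgene, which protects cells from apoptosis, is in the control cells too, and a bulk sort of infected cells can hold cells whose Stat5 genes were not cut on every allele. Animal ages and the number of animals per library are not stated, so the spread between the 2 libraries of a group may be technical.

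Inflammasomes are cytosolic complexes that turn a sensed microbial or danger signal into caspase-1 activity. In mice NAIP5 and NAIP6 bind bacterial flagellin and NAIP2 binds the rod protein of type III secretion systems, and each then recruits NLRC4. NLRP3 responds to a range of cell disturbances, AIM2 to cytosolic DNA, and NLRP1B of some mouse strains to cleavage by anthrax lethal factor. The adaptor ASC, encoded by Pycard, links sensors to caspase-1, which cleaves gasdermin D and the precursors of IL-1 beta and IL-18. Most of this is known from macrophages, and STAT5 itself carries IL-7 signals in lymphoid progenitors.

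The Naip genes sit side by side on chromosome 13 (GRCm38, minus strand), Naip2 at 100144063-100202122, Naip5 at 100211740-100247336, Naip6 at 100281121-100316616 and Naip1 at 100407770-100452864. They are close copies, which matters for every Naip value because the reads of one can be assigned to another. Over the whole coding sequence, from the GENCODE M21 transcripts, Naip5 and Naip6 are 97.0% identical, and the longest stretch without a mismatch is 229 bases, in exon 9 of Naip5 and exon 10 of Naip6. Naip1 is 91.8% identical to Naip5, and Naip2 87.1%. The first 120 coding bases are shown so that this closeness can be seen, with capitals marking each base that differs from Naip5.
Naip5: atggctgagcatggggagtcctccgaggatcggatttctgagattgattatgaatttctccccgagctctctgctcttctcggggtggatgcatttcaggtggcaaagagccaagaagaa
Naip6: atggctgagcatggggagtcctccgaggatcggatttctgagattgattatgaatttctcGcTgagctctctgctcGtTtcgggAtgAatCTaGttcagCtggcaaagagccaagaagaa
Naip2: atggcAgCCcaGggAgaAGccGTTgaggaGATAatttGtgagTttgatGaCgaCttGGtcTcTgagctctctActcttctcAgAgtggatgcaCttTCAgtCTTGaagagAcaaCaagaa
Naip1: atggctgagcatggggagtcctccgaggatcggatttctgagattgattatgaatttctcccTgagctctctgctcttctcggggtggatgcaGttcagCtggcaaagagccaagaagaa
Within these 120 bases Naip6 differs from Naip5 at 10 positions, Naip2 at 36 and Naip1 at 3. Of all 50-base windows of the transcript, 36.0% in Naip5, 21.3% in Naip6, 19.3% in Naip2 and 31.9% in Naip1 occur letter for letter in another Naip gene. For 100-base windows the shares are 15.7%, 6.24%, 4.45% and 13.5% in the same order. The other Naip genes searched include Naip3, which is not among the 4 genes above. In that order, 14.5%, 5.81%, 10.8% and 23.2% of the 50-base windows occur in Naip3, and 8.72%, 0.743%, 2.31% and 10.7% of the 100-base windows. No read length is stated in the labels or headers. A further record, Naip7 (100283115-100317688), lies over Naip6 on the same strand, and its counts were 0.791 to 0.948 times those of Naip6 in every library, so it is not counted below as a gene apart from Naip6.

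The 250 bases upstream of the annotated starts of Naip5 and Naip2 (RefSeq, GRCm38.p6) are shown because these neighbours had the largest and the smallest sgStat5 differences of the Naip members in both gates, while their windows share the longest run of any Naip pair. Capitals mark that run of 34 bases, which begins at -46 in Naip5 (window chr13:100247337-100247586, minus strand) and at -39 in Naip2 (window chr13:100202123-100202372, minus strand). The windows end at the base before the start.
Naip5 upstream: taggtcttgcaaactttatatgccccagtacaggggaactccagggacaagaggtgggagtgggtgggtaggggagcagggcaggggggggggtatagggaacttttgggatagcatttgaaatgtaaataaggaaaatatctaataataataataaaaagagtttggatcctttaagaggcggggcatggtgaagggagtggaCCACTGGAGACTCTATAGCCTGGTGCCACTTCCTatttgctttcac
Naip2 upstream: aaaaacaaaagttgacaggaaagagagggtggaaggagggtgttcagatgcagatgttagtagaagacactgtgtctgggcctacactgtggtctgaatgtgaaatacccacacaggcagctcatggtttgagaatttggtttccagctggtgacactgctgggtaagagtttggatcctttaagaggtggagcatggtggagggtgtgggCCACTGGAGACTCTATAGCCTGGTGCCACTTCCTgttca
By comparison the longest run shared by the Naip5 and Naip6 windows is 6 bases, although their coding sequences are the closest pair, and that shared by Naip1 and Naip5 is 14 bases. The letters TTCNNNGAA, the core of a STAT site, occur on either strand in 7.02% of 32851 such RefSeq windows, and GAAANNGAA, the core of an interferon-stimulated response element, in 7.13%. Neither occurs in the 250-base windows of the 9 members, so no motif could be marked there.

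Library totals ran from 22146490 to 31209177 counts. Stat5a had 116 and 107 CPM (counts scaled to library size with edgeR's TMM factors) in late sgStat5 cells, against 257 and 238 in late control cells, and 106 and 105 CPM in early sgStat5 cells, against 258 and 257 in early control cells. Stat5b had 154 and 135 CPM in late sgStat5 cells, against 280 and 255 in late control cells, and 144 and 133 CPM in early sgStat5 cells, against 255 and 249 in early control cells. T-progenitor markers (10 genes summed) were 5258 to 6252 CPM in late sgStat5 cells, 6078 to 7775 in late control, 4165 to 4292 in early sgStat5 and 5014 to 5704 in early control, so the sum was lower in sgStat5 than in control cells without overlap in the early gate, while the late groups overlapped. Il2ra, the largest part of that sum, encodes the CD25 by which the cells were sorted. It had 1374 and 1886 CPM in late sgStat5 cells, against 2948 and 3075 CPM in late control cells (log2 fold change -0.89, SE 0.14, edgeR adjusted p = 0.0352), a call lost in 7 of the 8 fits without 1 library, all but that without late sgStat5 replicate 2 (log2 fold changes of -1.13 to -0.66). With the replicate number as a block Il2ra and Thy1 were lower in both gates, and Gata3, Ptcra, Bcl11b and Tcf7 were higher in late sgStat5 than in late control cells. The part of these marker differences in the results below was not tested. Summed myeloid markers (20 genes in the table) were 222 to 294 CPM in late sgStat5 cells, 168 to 255 in late control, 472 to 594 in early sgStat5 and 415 to 435 in early control. Much of that sum was Ccr2, and Adgre1, Lyz1, Cd14, Elane and Fcgr1 stayed under 1 CPM everywhere. Summed dendritic-cell markers (7 genes, Cd209a at 0 in every library) were 3.27 to 4.66 CPM in late sgStat5, 1.88 to 4.29 in late control, 17.5 to 26.0 in early sgStat5 and 17.6 to 18.5 in early control. The myeloid sum was higher in early sgStat5 than in early control cells without overlap, which rested on Ccr2. Ccr2 had 366 and 251 CPM in early sgStat5 cells, against 220 and 213 CPM in early control cells, and without it the sums were 227.2 and 221.6 CPM in early sgStat5, against 194.9 and 221.9 CPM in early control cells, which overlap. Fcer1g, Cx3cr1 and Cd68 lay lower in each early sgStat5 library than in each early control library. With or without Ccr2 the sum was higher in the early than in the late gate, and its part in the results below was not tested. The B-cell sum (6 genes, Ms4a1 at 0) stayed at or below 16.4 CPM, and the stromal sum (7 genes) ran from 1.44 to 501 CPM, with a range within each group that was wider than the difference between groups.

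The members' levels spanned a wide range. Compared per transcript length, as the deposited FPKM, Casp1 came first in sgStat5 cells, at 20.0 and 18.8 FPKM in the late gate and 19.3 and 16.2 FPKM in the early gate. Pycard came first in control cells, at 12.9 and 10.0 FPKM in the late gate and 9.36 and 10.2 FPKM in the early gate. Casp1 separated from the next member in sgStat5 cells of either gate, and Pycard overlapped Casp1 in early control cells and stood just above it in late control cells (lowest Pycard 10.0, highest Casp1 9.98 FPKM). Aim2 overlapped at least 1 of these 2 genes in each group. Nlrp3 came next by its mean in every group, from 1.502 FPKM in early sgStat5 to 8.19 FPKM in late control libraries.

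**Figure D1:**
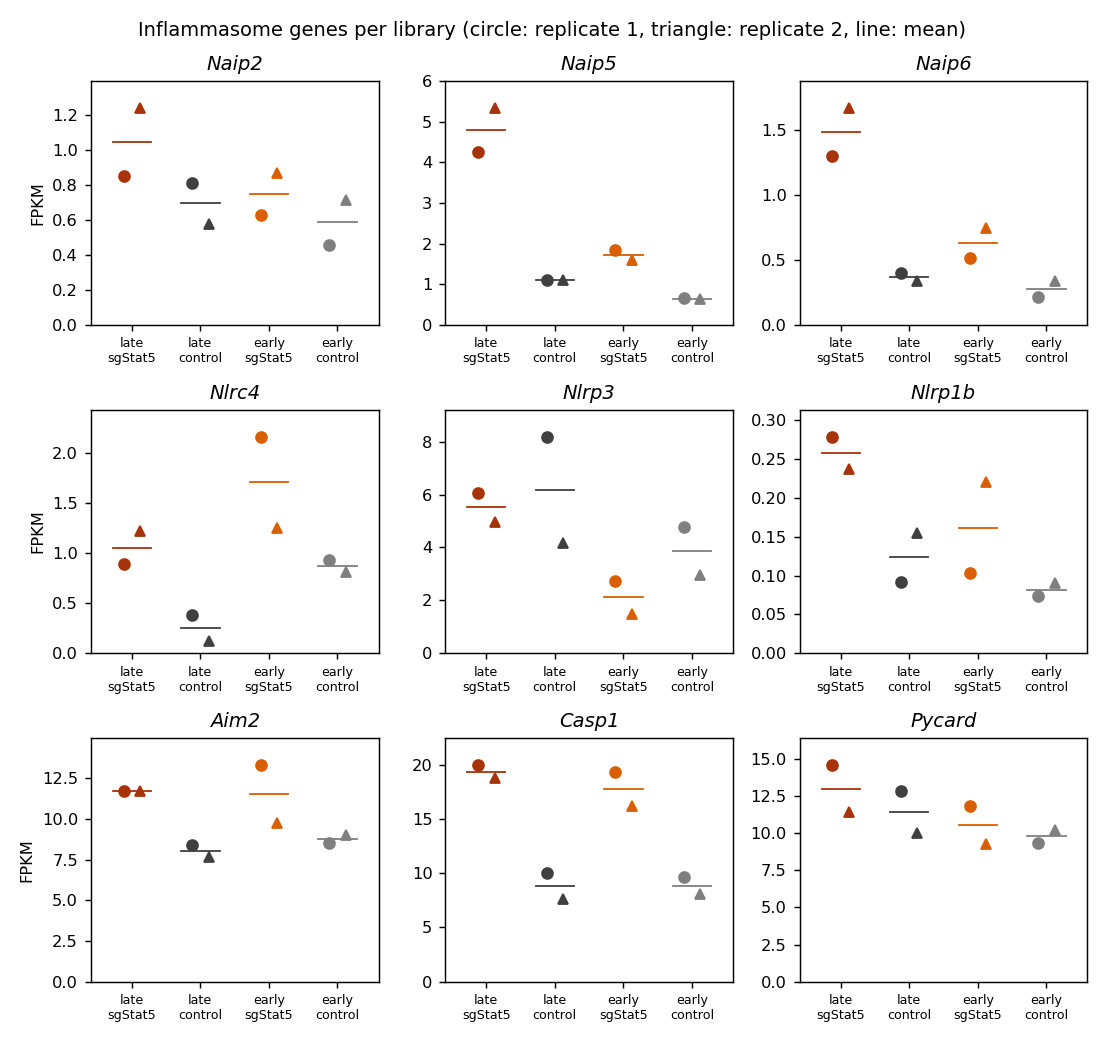
FPKM of each of the 9 genes (vertical axes, from 0, a separate scale per gene) in the 2 libraries of each group, with circles for replicate 1, triangles for replicate 2 and a line at the mean. Naip5 reached 4.26 and 5.34 FPKM in late sgStat5 cells, above all other groups, while Pycard's groups overlap in the early gate and in the late gate.

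The NLRC4 pathway genes lay in the lower part of the range, overlapping Nlrp3 in sgStat5 cells. In early sgStat5 cells Naip5 had 1.85 and 1.60 FPKM and Nlrc4 2.16 and 1.25 FPKM, beside 2.745 and 1.502 FPKM of Nlrp3. Naip5 had 4.26 and 5.34 FPKM in late sgStat5 cells, where it overlapped Nlrp3 (6.06 and 4.98 FPKM), and 1.10 and 1.09 FPKM in late control cells. Naip2, Naip6 and Nlrc4 lay between 0.120 and 2.16 FPKM. In late control cells Nlrc4 overlapped Naip6 above it and Nlrp1b below it, and in early sgStat5 cells it overlapped Naip5. Nlrp1b was the lowest member by mean in every group, between 0.0740 and 0.279 FPKM, on 11 to 37 counts a library. In bulk RNA, fewer cells that express a gene and less of its RNA per cell cannot be told apart.

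Naip5, the flagellin receptor, had the largest fold difference between sgStat5 and control cells of the 9 in the early gate, and in the late gate lay beside Nlrc4 at the top, with 2.07 against 2.03 log2 units for Nlrc4 without the replicate number as a block, and 2.07 against 2.16 with it. Naip5 had 30.1 and 38.1 CPM in late sgStat5 cells, against 8.12 and 8.13 CPM in late control cells. Its early values were 13.3 and 11.97 CPM in sgStat5 cells, against 4.88 and 4.63 CPM in control cells. Each sgStat5 library lay above each control library of its gate, and the early sgStat5 libraries also lay above the late control ones. The log2 fold change of sgStat5 over control was 2.07 (SE 0.18), or 4.20-fold, in the late gate and 1.41 (SE 0.18), or 2.66-fold, in the early gate.

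Naip6, the second flagellin receptor, followed the same order of groups at lower counts. It had 11.7 and 15.1 CPM in late sgStat5 cells, against 3.71 and 3.16 CPM in late control cells. Naip6 in early cells had 4.72 and 7.06 CPM in sgStat5 cells, against 2.01 and 3.12 CPM in control cells. The groups did not overlap in either gate, and the log2 fold changes were 1.96 (SE 0.34) in the late and 1.197 (SE 0.34) in the early gate. Naip2, the rod-protein receptor, had 5.52 and 8.10 CPM in late sgStat5 cells, against 5.48 and 3.94 CPM in late control cells, so those groups were separated by a margin far smaller than the spread within either. Naip2 in the early gate overlapped, with 4.13 and 5.95 CPM in sgStat5 cells, against 3.15 and 4.72 CPM in control cells. Its log2 fold changes were 0.54 (SE 0.37) in the late and 0.36 (SE 0.37) in the early gate.

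Because reads can pass between these copies, the counts of Naip1, Naip2, Naip5 and Naip6 were also summed into 1 feature and refitted, an alternative added after the data were seen. The sum was 1.74 (SE 0.17) log2 units higher in late sgStat5 than in late control cells and 1.003 (SE 0.17) higher in early sgStat5 than in early control cells. Naip5 made up 57.3% and 56.4% of the Naip counts in late sgStat5 cells, against 42.5% and 48.2% in late control cells, and 53.7% and 44.2% in early sgStat5 cells, against 41.2% and 33.0% in early control cells. The share of Naip2 ran the other way, at 10.5% and 11.98% in late sgStat5 cells, against 28.7% and 23.3% in late control cells, and at 16.6% and 21.96% in early sgStat5 cells, against 26.6% and 33.6% in early control cells. The stacked plot of Naip counts shows these shares.

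**Figure D2:**
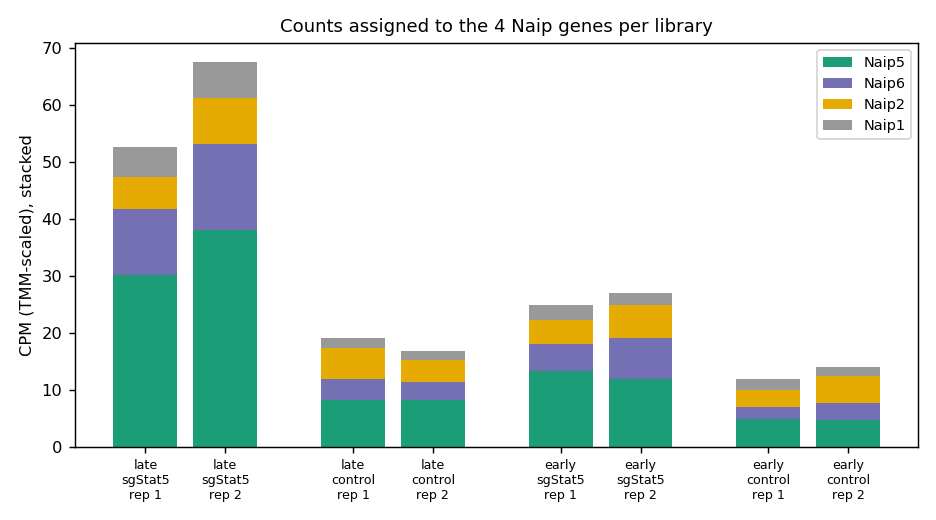
CPM (vertical axis, TMM-scaled, from 0) assigned to Naip5, Naip6, Naip2 and Naip1, stacked for each of the 8 libraries. The 2 late sgStat5 columns are the tallest, with Naip5 at 30.1 and 38.1 CPM, while the Naip2 block lies between 3.15 and 8.10 CPM.

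Naip1, whose product recognises the needle protein of type III secretion systems and which is no member of the 9, had 5.30 and 6.31 CPM in late sgStat5 cells, against 1.7997 and 1.65 CPM in late control cells. Early values of Naip1 were 2.65 and 2.11 CPM in sgStat5 cells, against 1.81 and 1.57 CPM in control cells. Its late log2 fold change was 1.75 (SE 0.36), with an edgeR adjusted p of 0.078, and 1.76 with an adjusted p of 0.0227 when the replicate number was a block. The early value was 0.49 (SE 0.36, adjusted p = 0.954).

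Nlrc4, on chromosome 17 (74426295-74459108), encodes the shared partner of the NAIP receptors and had an order of groups of its own. It had 4.55 and 6.31 CPM in late sgStat5 cells, against 2.03 and 0.645 CPM in late control cells. Early cells had more, with 11.3 and 6.80 CPM in sgStat5 cells, against 5.04 and 4.27 CPM in control cells. Every sgStat5 library was above every control library of its gate, but the libraries of a group differed widely, most in late control cells. The log2 fold changes were 2.03 (SE 0.55) in the late gate and 0.96 (SE 0.53) in the early gate. Without late control replicate 2, the lowest library, the late value was 1.42, and without late control replicate 1 it was 3.07.

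Nlrp3, on chromosome 11 (59542686-59566953), was the member that ran lower in sgStat5 cells. In the early gate it had 15.1 and 8.53 CPM in sgStat5 cells, against 27.2 and 16.4 CPM in control cells, which did not overlap. In the late gate it had 32.5 and 27.0 CPM in sgStat5 cells, against 46.0 and 23.6 CPM in control cells, which did. In each of the 4 groups replicate 1 exceeded replicate 2. The log2 fold changes were -0.22 (SE 0.40) in the late gate and -0.89 (SE 0.41) in the early gate, and with the replicate number as a block the early value was -0.89 with an SE of 0.18.

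Nlrp1b, on the same chromosome (71153102-71230733), had 1.55 and 1.33 CPM in late sgStat5 cells, against 0.536 and 0.903 CPM in late control cells. Nlrp1b in early cells had 0.584 and 1.29 CPM in sgStat5 cells, against 0.433 and 0.514 CPM in control cells. The log2 fold changes of 0.99 (SE 0.72) and 0.98 (SE 0.73) in the late and early gates carry the widest errors of the 9, and its counts were the lowest. Aim2, on chromosome 1 (173420604-173466036), had 39.6 and 40.2 CPM in late sgStat5 cells, against 29.7 and 27.2 CPM in late control cells. Its early values were 46.1 and 35.0 CPM in sgStat5 cells, against 30.6 and 31.4 CPM in control cells. The Aim2 groups did not overlap in either gate, with small log2 fold changes of 0.49 (SE 0.15) in the late and 0.39 (SE 0.15) in the early gate.

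Casp1, on chromosome 9 (5298517-5307281), the protease on which these sensors converge, was about as far above control in the late gate as in the early gate. It had 40.1 and 38.1 CPM in late sgStat5 cells, against 21.0 and 16.2 CPM in late control cells. Casp1 in early cells had 39.7 and 34.4 CPM in sgStat5 cells, against 20.5 and 16.6 CPM in control cells. The log2 fold changes were 1.08 (SE 0.18), or 2.11-fold, in the late gate and 0.997 (SE 0.18), or 1.995-fold, in the early gate. Pycard, on chromosome 7 (127991373-127993867), had 41.6 and 32.8 CPM in late sgStat5 cells, against 38.4 and 30.1 CPM in late control cells. Its early values were 34.5 and 28.1 CPM in sgStat5 cells, against 28.3 and 29.9 CPM in control cells. The Pycard groups overlapped in both gates, with log2 fold changes of 0.12 (SE 0.18) and 0.10 (SE 0.19) in the late and early gates. The Pycard exons overlap the opposite-strand gene Gm45205 over 485 of 3800 bases, and reads of the 2 cannot be told apart because the library kit named in the labels keeps no strand.

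**Figure D3:**
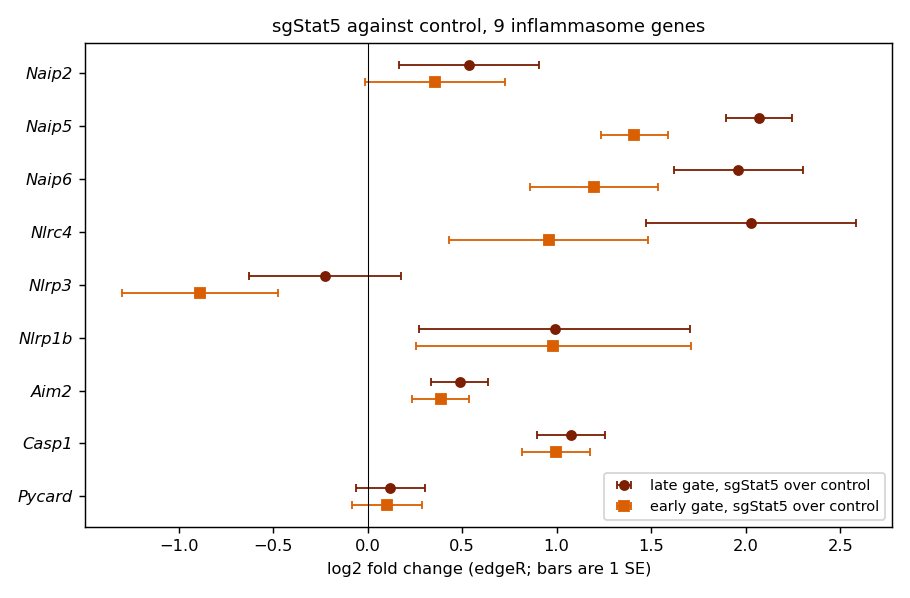
Log2 fold change of sgStat5 over control (horizontal axis, edgeR, bars 1 SE) for each of the 9 genes in the late gate (circles, dark) and the early gate (squares, orange). Naip5 lies at 2.07 and 1.41, Nlrp3 is the only gene of the 9 left of 0, and Pycard lies at 0.12 and 0.10.

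As a count only, 3 of the 9 genes, all higher, lay under the edgeR adjusted threshold of 0.05 in the late gate, beside 1.71% of all tested genes (0.755% higher and 0.951% lower). With the replicate number as a block there were 4, all higher, beside 8.22% of all genes (3.72% higher and 4.49% lower). In the early gate the count was 1, higher, beside 0.269% of all genes, and with the block 3, of which 2 were higher and 1 lower, beside 2.33%. Because the members were chosen with such results known, nothing is read from these counts, and they are no test of a member. Groups stood apart without overlap, sgStat5 above control, for 7 of the 9 in the late gate (18.1% of all genes) and for 6 in the early gate (18.7%), and sgStat5 below control for 0 in the late gate (20.8%) and for Nlrp3 in the early gate (19.4%). The median log2 fold change of the 9 was 0.99 in the late and 0.96 in the early gate, against -0.02 and -0.00012 over all tested genes. Over the 8 fits that left out 1 library, the log2 fold changes in the late gate ran from 1.89 to 2.25 for Naip5, from 1.76 to 2.16 for Naip6 and from 0.90 to 1.27 for Casp1, and that of Naip5 in the early gate from 1.33 to 1.49.

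Whether the sgStat5 difference itself changed between gates was asked with the interaction term of the same fit. The point estimates, late minus early, were above 0 for 9 of the 9 members, as for 6433 of the 13775 genes tested. They were largest for Nlrc4 at 1.07 (SE 0.75), Naip6 at 0.76 (SE 0.47), Nlrp3 and Naip5 at 0.66 each (SE 0.57 and 0.24) and Naip2 at 0.18 (SE 0.52), and the other 4 lay between 0.01 and 0.10. No gene in the whole table passed this test with edgeR (0%), so no difference between gates was established for any member, Naip5 included (adjusted p = 0.9998, and 0.780 with the replicate block). The term contains the early sgStat5-against-control value, which was known for Naip5 when the members were chosen. The members' values here are thus a description too, and no independent test of a member. At an unadjusted p under 0.05 there were 302 genes, of which Naip5 was the 1 member, and DESeq2 called 2 genes and 0 members. The summed Naip counts gave 0.74 (SE 0.24, adjusted p = 0.9996).

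Levels were also compared between the gates, to describe how these genes stand across commitment. The adjusted p-values given here come from the fit of the whole table, for members chosen with earlier results known. Both stage comparisons use early libraries, whose Naip5 values were known when the members were chosen. The members' stage values and calls are thus a description too, and no independent test of a member. The late control cells and the early control cells are the same libraries that serve as controls above, so the stage and guide comparisons share them. In control cells, Naip5 was 0.77 (SE 0.18) log2 units higher in the late than in the early gate, at 8.12 and 8.13 CPM in late control, against 4.88 and 4.63 CPM in early control cells. Its edgeR adjusted p was 0.196, and 0.0320 with the replicate block. In sgStat5 cells Naip5 rose by 1.43 with the block (edgeR adjusted p = 0.00111). Without the block the rise was 1.43 (SE 0.17, edgeR adjusted p = 0.0465), with 30.1 and 38.1 CPM in late sgStat5, against 13.3 and 11.97 CPM in early sgStat5 cells. That call was lost when any of 6 libraries was left out, the exceptions being the 2 late control ones, with adjusted p from 0.0319 to 0.257 over the 8 fits.

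Naip6 was 1.18 (SE 0.33) log2 units higher in the late gate of sgStat5 cells, with an adjusted p of 0.104, and 1.19 with an adjusted p of 0.0142 with the block. In control cells its difference was 0.42 (SE 0.34, adjusted p = 0.597). Naip2 differed by 0.43 (SE 0.37, adjusted p = 0.507) in sgStat5 and 0.25 (SE 0.37, adjusted p = 0.791) in control cells. Summed over the Naip genes, the late gate was 1.21 (SE 0.17, adjusted p = 0.0482) above the early gate in sgStat5 cells and 0.47 (SE 0.17, adjusted p = 0.287) in control cells.

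Nlrc4 lay the other way. In control cells it had 2.03 and 0.645 CPM in the late gate, against 5.04 and 4.27 CPM in the early gate, a log2 fold change of -1.80 (SE 0.55) with an edgeR adjusted p of 0.253, and -1.88 with 0.0329 with the block. In sgStat5 cells the Nlrc4 difference was -0.74 (SE 0.52, adjusted p = 0.428), with 4.55 and 6.31 CPM late, against 11.3 and 6.80 CPM early. The summed myeloid and dendritic markers given above were also lower in the late gate. Nlrp3 was higher in the late gate, by 1.34 (SE 0.41, adjusted p = 0.121, and 1.40 with 0.00139 with the block) in sgStat5 cells. In control cells the Nlrp3 difference was 0.67 (SE 0.40, adjusted p = 0.475, and 0.65 with 0.0452 with the block).

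Casp1, Aim2 and Pycard differed little between gates. Casp1 differed by 0.08 (SE 0.18, adjusted p = 0.815) in sgStat5 cells and by 0.00 (SE 0.18, adjusted p = 0.999) in control cells. Aim2 differed by -0.02 (SE 0.15, adjusted p = 0.944) and -0.12 (SE 0.15, adjusted p = 0.750), and Pycard by 0.25 (SE 0.19, adjusted p = 0.443) and 0.23 (SE 0.18, adjusted p = 0.594), in sgStat5 and control cells in turn. Nlrp1b had 0.61 (SE 0.71) and 0.60 (SE 0.72). In all, 1 of the 9 passed in sgStat5 cells without the block (0.973% of all genes) and 3 with it (22.8%), and in control cells 0 of the 9 passed without the block (0.0145%) and 3 with it (10.9%), Naip5 and Nlrp3 higher (6.64%) and Nlrc4 lower (4.30%). Late and early groups stood apart without overlap in sgStat5 cells for Naip5, Naip6, Nlrp3 and Nlrp1b, higher late (28.1% of all genes), and for Nlrc4, lower late (28.1%). In control cells they did so for Naip5, Naip6, Nlrp1b and Pycard, higher late (24.6%), and for Nlrc4 and Aim2, lower late (24.2%). In control cells the edgeR test without the block gave 2 members at an unadjusted p under 0.05, beside 14.9% of all genes. DESeq2 called 2, Nlrc4 and Naip5, beside 4.27% of all genes.

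**Figure D4:**
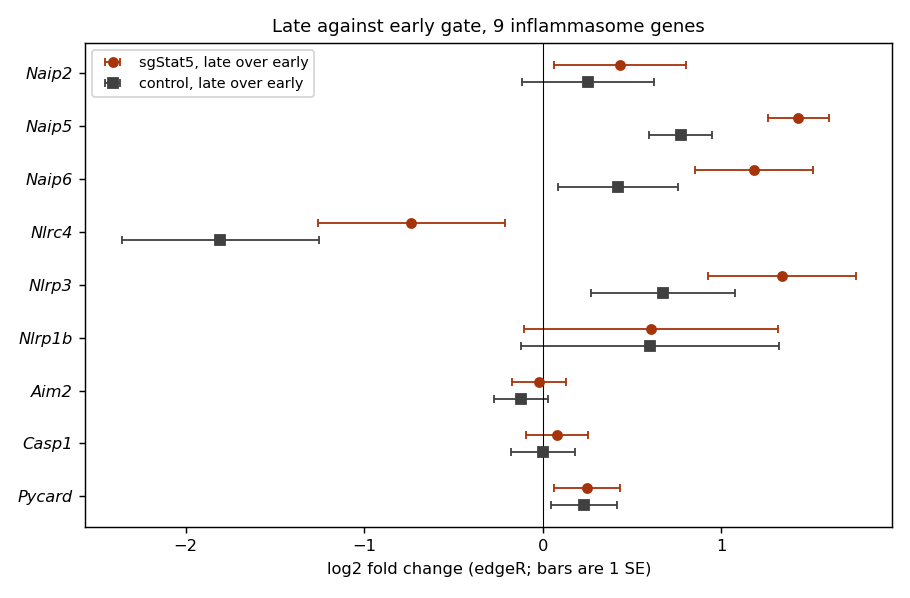
Log2 fold change of the late over the early gate (horizontal axis, edgeR, bars 1 SE) for each of the 9 genes in sgStat5 cells (circles) and control cells (squares). Nlrc4 lies left of 0 at -0.74 and -1.80, Naip5 right of 0 at 1.43 and 0.77, and Casp1 at 0.08 and 0.00.

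Across the 8 libraries the members did not form 1 pattern. Pearson's r of log2 CPM was 0.96 between Naip5 and Naip6, 0.91 between Aim2 and Casp1, 0.83 between Naip5 and Casp1, 0.31 between Naip5 and Nlrc4, and -0.43 between Nlrc4 and Nlrp3. These 8 points share their groups and replicate numbers, and the Naip pair shares sequence. Among 13766 other tested genes, those most like Naip5 were Ifi47 and Isca2 (r = 0.988 each), 2700081O15Rik and Irf1 (0.987 each) and Irgm1 (0.983). Irf1 had 284 and 295 CPM in late sgStat5 cells, 127 and 123 CPM in late control, 164 and 175 CPM in early sgStat5 and 101 and 109 CPM in early control. The nearest gene was Bcl3 for Casp1 (0.990), 1110037F02Rik for Nlrp3 (0.991), Nmnat1 for Naip2 (0.984), Tnk1 for Aim2 (0.964), 2700049A03Rik for Pycard (0.987), Six5 for Nlrc4 (0.934) and Mir5113 for Nlrp1b (0.970). For Naip6 it was the overlapping record Naip7 (0.996).

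Genes around the Naip cluster were looked at in the same fit. Of 15 tested genes that are no Naip gene and start within 500 kb, among them Smn1, Gtf2h2, Ccnb1 and Cdk7, 0 were called for sgStat5 against control in either gate, by edgeR with or without the block or by DESeq2. In either gate 0 of the 15 had an unadjusted edgeR p under 0.05, beside 12.4% of all genes late and 6.44% early. Their log2 fold changes lay between -0.37 and 0.26 in the late gate and between -0.44 and 0.39 in the early gate.

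Around the 9 members, 53 tested genes of 6 lists were examined: other sensors, AIM2-like receptors, partners that license or restrain sensors, substrates and effectors, inhibitors, and IL-1 family receptors. The lists were drawn up with earlier results of these data known. Naip7, whose record overlaps Naip6 and repeats it (10.3 and 12.05 CPM in late sgStat5, against 3.52 and 2.90 CPM in late control cells), was left out of the counts after the data were seen. For sgStat5 against control in the late gate, 1 of the 53 was higher (Casp4) and 1 lower (Hsp90ab1) by edgeR, beside 0.755% and 0.951% of all tested genes, and with the replicate block 9 were higher and 4 lower, beside 3.72% and 4.49%. In the early gate 0 of the 53 passed, beside 37 of all genes (0.269%), and with the block 5 were higher and 1 lower, beside 138 and 183 of all genes (2.33% in either direction). At an unadjusted edgeR p under 0.05 there were 14 of the 53 in the early gate, beside 6.44% of all genes, and DESeq2 called 4, beside 248 of all genes. Counted in, Naip7 would add 1 higher gene in the late gate, with or without the block. The median log2 fold change of the 53 was 0.09 in the late and 0.17 in the early gate.

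Among other sensors, Casp4, which encodes mouse caspase-11, the receptor of cytosolic lipopolysaccharide, is the neighbour of Casp1 on chromosome 9 (5308849-5336791). Casp4 had 15.9 and 13.7 CPM in late sgStat5 cells, against 4.94 and 2.97 CPM in late control cells, and rose by 1.90 (SE 0.34, edgeR adjusted p = 0.0457). That call was lost when any 1 library was left out, with log2 fold changes of 1.58 to 2.31. Early cells had Casp4 at 5.03 and 4.25 CPM in sgStat5 cells, against 2.56 and 1.77 CPM in control cells (1.10, SE 0.34, adjusted p = 0.492).

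Nlrp6, a sensor best known from intestinal epithelium, lay in the opposite direction. It had 2.39 and 0.502 CPM in late sgStat5 cells, against 43.6 and 12.97 CPM in late control cells. Nlrp6 in early cells had 0.719 and 0.591 CPM in sgStat5 cells, against 12.99 and 3.63 CPM in control cells. The groups did not overlap, although control replicate 1 was far above replicate 2 in each gate, and the log2 fold changes were -4.31 (SE 0.98) in the late and -3.66 (SE 1.0) in the early gate. The edgeR adjusted p was 0.106 and 0.376, and with the replicate block 0.00019 and 0.00209. Nlrp1a, a paralog of Nlrp1b, had log2 fold changes of 0.39 (SE 0.43, adjusted p = 0.798) and 0.43 (SE 0.43, adjusted p = 0.998) in the late and early gates.

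The AIM2-like receptors are a gene cluster beside Aim2 on chromosome 1, and many of their proteins share the DNA-binding domain of AIM2. All 10 tested genes had positive log2 fold changes of sgStat5 over control in the late gate and in the early gate, with medians of 0.63 and 1.24. Of all tested genes 47.7% and 49.9% had positive values. The groups stood apart for 9 of the 10 in the late gate and 8 in the early gate, beside 18.1% and 18.7% of all genes, with Mndal overlapping in the late and Ifi205 and Ifi211 in the early gate. By edgeR without the block 0 of the 10 passed in either gate, while 3 and 5 had an unadjusted p under 0.05 and DESeq2 called 3 and 3, in the late and early gates. With the block 5 were higher in the late gate, beside 3.72% of all genes, and 4 in the early gate, beside 138 of all 13775 genes. Ifi209 had 82.8 and 55.6 CPM in late sgStat5 cells, against 31.3 and 13.8 CPM in late control cells, and 33.4 and 27.96 CPM in early sgStat5 cells, against 11.1 and 5.62 CPM in early control cells. Its log2 fold changes were 1.62 (SE 0.45, adjusted p = 0.187, and 0.00115 with the block) in the late and 1.88 (SE 0.46, adjusted p = 0.286, and 0.00209 with the block) in the early gate. Ifi213 had 8.53 and 4.63 CPM in late sgStat5, against 1.30 and 0.355 CPM in late control cells, and 1.08 and 0.960 CPM in early sgStat5, against 0.118 and 0.0643 CPM in early control cells. Ifi203 and Ifi214 were called in both gates with the block too, and Mndal in the late gate. All 10 also had positive log2 fold changes of the late over the early gate, with medians of 0.84 in sgStat5 and 1.04 in control cells, and with the block 8 of the 10 were higher in sgStat5 cells, beside 11.3% of all genes, and 6 in control cells, beside 6.64%. They are paralogs, so reads of one can have been assigned to another.

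Of the substrates, Gsdmd, which encodes the pore-forming protein gasdermin D cut by caspase-1, had 45.3 and 31.3 CPM in late sgStat5 cells, against 29.2 and 17.9 CPM in late control cells. Gsdmd in early cells had 35.2 and 29.7 CPM in sgStat5 cells, against 23.6 and 17.0 CPM in control cells. Its log2 fold changes were 0.70 (SE 0.29, edgeR adjusted p = 0.395, and 0.0141 with the block) and 0.68 (SE 0.29, adjusted p = 0.794, and 0.0379 with the block) in the late and early gates. The cytokine substrates were scarcely present: Il1b stayed at or below 0.290 CPM and Il1a at or below 0.630 CPM in every library, and Il18 lay between 0.354 and 1.62 CPM. Ninj1, whose product ruptures the membrane of dying cells, fell by 1.34 (SE 0.16, edgeR adjusted p = 0.0465) in late against early sgStat5 cells, with 9.15 and 10.0 CPM late and 26.5 and 22.2 CPM early. In control cells the Ninj1 difference was -1.01 (SE 0.16, adjusted p = 0.124, and 0.00796 with the block).

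Among licensing partners, Hsp90ab1, a chaperone that keeps NLR proteins competent for signalling, fell by 0.40 (SE 0.06, edgeR adjusted p = 0.0352) in late sgStat5 against late control cells. The call of Hsp90ab1 was lost without any 1 library, with log2 fold changes of -0.45 to -0.35. Nek7, which binds NLRP3, had -0.36 (SE 0.13, adjusted p = 0.333) in the late and -0.34 (SE 0.13, adjusted p = 0.721) in the early gate. Of the inhibitors, Serpinb1a, a serpin that restrains caspase-1 in mouse, fell by 0.70 (SE 0.09, edgeR adjusted p = 0.0482) in late against early sgStat5 cells, and with the block it was lower in late sgStat5 than in late control cells (-0.37, adjusted p = 0.0350, and 0.138 without the block). Card6 rose by 2.22 (SE 0.35, edgeR adjusted p = 0.0486) in late against early sgStat5 cells, with 10.4 and 10.6 CPM late and 1.93 and 2.55 CPM early. The calls of Ninj1, Serpinb1a and Card6 each held only without one of the 2 late control libraries when single libraries were left out (6 of 8 fits lost them, with adjusted p of up to 0.264). Between gates, 1 of the 53 list genes was higher and 2 were lower in late than in early sgStat5 cells, beside 0.661% and 0.312% of all genes, and 14 and 9 with the block, beside 11.3% and 11.5%. In control cells 0 of the 53 passed without the block, beside 2 of all genes (0.0145%), and with it 11 were higher and 2 lower in the late gate, beside 6.64% and 4.30%. At an unadjusted edgeR p under 0.05 there were 15 of the 53 in control cells, beside 14.9% of all genes, and DESeq2 called 7, beside 4.27%. Tnfaip3, which encodes the NF-kappaB inhibitor A20, had a late over early log2 fold change of 1.96 (SE 0.52, edgeR adjusted p = 0.0948, and 0.00226 with the block) in sgStat5 cells. Txnip, whose product binds NLRP3, had 0.98 (SE 0.30, adjusted p = 0.117, and 0.00479 with the block), and Irak4, a kinase of IL-1 receptor signalling, had -0.70 (SE 0.13, adjusted p = 0.0621, and 0.00855 with the block). Of the 9 IL-1 family receptor genes, 0 passed for sgStat5 against control in either gate, by edgeR with or without the block or by DESeq2. Of these 9, 1 in the late and 0 in the early gate had an unadjusted edgeR p under 0.05, beside 12.4% and 6.44% of all genes.

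**Figure D5:**
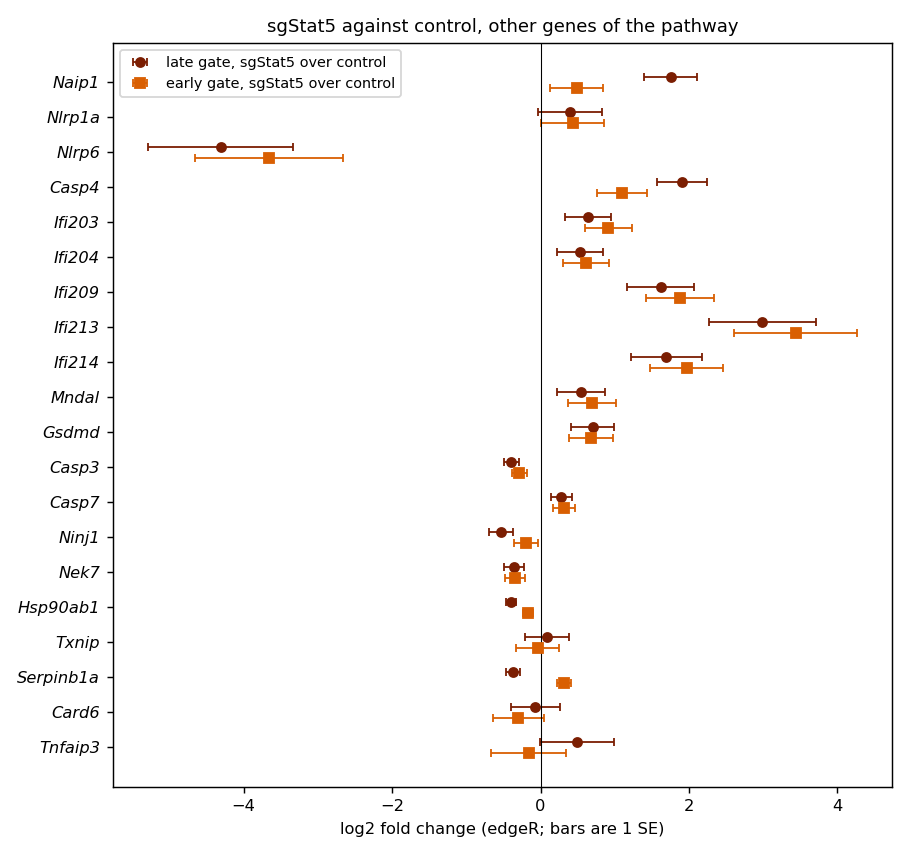
Log2 fold change of sgStat5 over control (horizontal axis, edgeR, bars 1 SE) in the late gate (circles, dark) and the early gate (squares, orange) for 20 other genes of the pathway. Nlrp6 lies at -4.31 and -3.66, Casp4 at 1.90 and 1.10, and the AIM2-like receptors shown lie right of 0 in both gates.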

How the data were processed

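Bulk RNA-seq of 8 libraries, 4 groups of 2, was analysed from the deposited tables. Bcl2fastq 1.8.4, STAR 2.4.0, RSEM 1.2.25 and GRCm38 (mm10) are named in the submitters' processing notes. The authors' counts are whole reads over exons, 1 record per gene, from HOMER without adjustment, per the file headers, and their FPKM values come from the same HOMER step with length and depth scaling, per the file headers. How reads matching several genes were treated is not stated in them, which bears on the Naip genes. No strand option is named, and the library kit in the labels keeps no strand.

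From the counts, edgeR 4.0.16 (R 4.3.3) fitted 1 mean per group to all 8 libraries. Genes were filtered with filterByExpr and scaled by TMM, and quasi-likelihood F-tests were two-sided with Benjamini-Hochberg adjustment over 13775 genes at 0.05. SEs were derived from the log2 fold change and its F statistic (absolute value over root F). The fit leaves 4 residual degrees of freedom, or 3 with the replicate block. Groups follow the labels' titles. Replicate numbers come from the same titles. Group-centred log2 CPM of replicate 1 correlated between groups at 0.421 to 0.578 over 6 pairs of groups, so the numbers were taken to pair the libraries, and values with the number as a block stand beside results whose call they change.

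Alternatives were DESeq2 size factors, DESeq2 1.42.0, no filter, a minimum of 1 CPM in 2 libraries, limma 3.58.1 on log2(FPKM + 0.1) and log2(FPKM + 1), leaving out each library, and Naip counts summed with Naip7. Added after the data were seen were the Naip sum without Naip7, which is the one reported above, pathway lists without Naip7 and the myeloid sum without Ccr2. The edgeR code was tested on simulated counts. Sequences were read from RefSeq (GRCm38.p6) and GENCODE M21 tables and aligned with Biopython 1.88. Named genes were the 9 members, the genes most correlated with each (5 for Naip5, 1 for each other), list genes called in any comparison with or without the block plus up to 3 per list by mean CPM, and tested genes within 500 kb of the Naip cluster. The members and all lists were chosen with earlier results of these data known. The series text gives the mCherry-positive gate the reporter status of the negative one, and the sample labels were followed.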

Additional observations from a re-analysis of the deposited data

Results flagged for a closer look

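Within the pathway, 4 genes moved one way in both replicate pairs of the late gate and the other way in both pairs of the early gate, comparing sgStat5 with control. None of the 9 members did. The difference of the effects, late minus early, was -0.36 (SE 0.14) log2 units for Brcc3, whose product deubiquitinates NLRP3, and -0.68 (SE 0.13) for Serpinb1a. It was -2.59 (SE 1.1) for the decoy receptor gene Il1r2 and 0.53 (SE 0.32) for the IL-18 receptor gene Il18r1. Each difference was tested with edgeR's interaction term and did not pass, with an adjusted p of 0.9998 for all 4 and, with the replicate block, 0.280 for Serpinb1a. Of all 13775 genes tested, 1328 (9.64%) met the same criterion, against 4 of the 63 records of the members and lists, Naip7 included (6.35%).

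Serpinb1a had 65.8 and 73.1 CPM in late sgStat5 cells, against 91.1 and 88.2 CPM in late control cells, and 112 and 114 CPM in early sgStat5 cells, against 93.5 and 88.0 CPM in early control cells. Il1r2 had 0.133 and 0.394 CPM in late sgStat5 cells, against 1.15 and 0.452 CPM in late control cells, and 3.37 and 1.77 CPM in early sgStat5 cells, against 1.30 and 1.22 CPM in early control cells.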

How the results depend on the processing

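Directions of the 9 members' log2 fold changes were compared over 705 pairs of a value and an alternative. Besides leaving out 1 library, 308 kept direction and call, 21 gained a call, 6 lost it and 10 changed sign. All 10 concerned values near 0 between gates. Casp1 in control cells (0.00076 as reported) was -0.0048 with DESeq2 size factors and -0.0048 with DESeq2, -0.021 with no filter, -0.0067 with the CPM minimum, -0.0019 with the replicate block, and -0.0096 and -0.0081 with limma on FPKM plus 0.1 and plus 1. Aim2 in sgStat5 cells (-0.02 as reported) was 0.0025 with the CPM minimum and 0.039 and 0.035 with limma on FPKM plus 0.1 and plus 1. Leaving out 1 library changed the sign of sgStat5 over control for Nlrp3 (-0.63 to 0.34) and Pycard (-0.045 to 0.31) in the late gate and for Pycard (-0.053 to 0.24) in the early gate. It did so for the late minus early difference of Naip2 (-0.14 to 0.48), Nlrp1b (-0.45 to 0.69), Aim2 (-0.080 to 0.31), Casp1 (-0.098 to 0.28) and Pycard (-0.15 to 0.20). For late against early it did so for Aim2 (-0.21 to 0.19) and Casp1 (-0.023 to 0.19) in sgStat5 cells and for Naip2 (-0.040 to 0.58) and Casp1 (-0.20 to 0.18) in control cells.

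Counts of called genes moved far more than the fold changes. For sgStat5 against control in the late gate, 235 genes were called, 631 with DESeq2, 1132 with the replicate block and 132 with limma on FPKM plus 0.1, and 58 to 149 without 1 library. In the early gate 37 were called, 114 with no filter, 248 with DESeq2, 321 with the block, 0 and 22 with limma on FPKM plus 0.1 and plus 1, and 0 to 32 without 1 library. The difference of effects gave 0 genes, 2 with DESeq2 and 0 without any 1 library. Late against early in sgStat5 cells gave 134, 760 with no filter, 1659 with DESeq2, 3144 with the block, 28 with limma on FPKM plus 0.1 and 0 to 516 without 1 library. In control cells it gave 2, 83 with no filter, 588 with DESeq2, 1507 with the block, 0 with either limma setting and 0 to 2 without 1 library. Members called for sgStat5 against control in the late gate were 3, with 4 by DESeq2, 4 with the block, 1 under limma on FPKM plus 0.1 and 1 in each fit without 1 library. In the early gate 1 was called, 2 with no filter, 2 with DESeq2, 3 with the block, and 0 with either limma setting or without any 1 library. Late against early, 1 was called in sgStat5 cells, 3 with DESeq2, 3 with the block and 0 to 1 without 1 library, and in control cells 0, with 2 by DESeq2 and 3 with the block. For the 9 members the replicate block changed no count of calls beyond those given here. The cause of these shifts was not tested. With 2 libraries a group and 11 to 37 counts for Nlrp1b, differences of its size could not be resolved.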
